A study of Mus musculus with 18 samples.

Results

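The 10 core circadian clock genes Clock, Arntl, Per1, Per2, Per3, Cry1, Cry2, Nr1d1, Nr1d2 and Rora were followed through the differential m6A sites of the mouse uterus. m6A (N6-methyladenosine) is the most common internal modification of messenger RNA. It was mapped by m6A-seq, in which RNA fragments are captured with an m6A antibody and sequenced next to the uncaptured input. A site was taken as a clock gene site when its annotation named the gene as the transcript it lies in, or when it was assigned to the gene and its centre lay between the ends of that gene. By this rule 8 of the 41084 listed sites belonged to clock genes, in 5 of the 10 genes, where 42.3% of all protein-coding genes held a site in any table. A further 14 sites had their centre on an exon of a clock gene but were assigned to a neighboring gene and named no clock gene, and they are given here as well and always marked as such.

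All tissue was the uterus of wild-type female ICR mice, 8 weeks old, taken on day 5 of pregnancy. The Veh group received saline by intraperitoneal injection on each morning of days 1 to 4. The LPS group received the same saline and, on days 3 and 4, lipopolysaccharide at 0.5 mg/kg given 30 minutes later. LPS is a bacterial cell wall component used to provoke inflammation. The Mel+LPS group received melatonin at 10 mg/kg, dissolved in saline with ethanol, in place of saline, followed by the same LPS. The study's methods call the injection without melatonin vehicle and do not say whether it held ethanol. Each group had 3 replicates with 1 input and 1 immunoprecipitated library each, 18 libraries in all, and the hour at which tissue was taken is not given in the sources used here. Sites were listed in 4 tables, higher or lower in LPS than in Veh, and higher or lower in Mel+LPS than in LPS. Higher is written as up and lower as down, and each site carried a single score, the log10 likelihood ratio of the difference between both groups. The table of sites down in LPS vs Veh was used on chromosomes 1 to 9, where it is complete and where 6 of the 10 genes lie. Per1, Cry1, Nr1d1 and Nr1d2 lie elsewhere and could not be assessed in that table. No value per replicate and no depth per library was at hand, so no score has an error and no difference between scores was tested. Because whole uterus was used and the tables hold no expression level, a change in methylation, in transcript amount and in the share of cells that carry the transcript cannot be told apart.

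The circadian clock is a feedback loop of transcription that runs in most cells. CLOCK and BMAL1, the product of Arntl, bind E-boxes as a pair and activate the Period (Per) and Cryptochrome (Cry) genes, whose proteins then repress CLOCK and BMAL1. In a further loop the nuclear receptors REV-ERBα and REV-ERBβ, encoded by Nr1d1 and Nr1d2, repress Arntl, and RORα, encoded by Rora, activates it. Melatonin is the hormone of darkness and a timing signal for this system. Clock genes are expressed in the rodent uterus, and m6A on clock transcripts is known to affect how they are processed and exported.

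The m6A enzyme methylates the A of DRACH, a motif of A, G or T, then A or G, then A, then C, and finally A, C or T. Short stretches of the clock transcripts are shown to make visible which candidate positions the exonic sites hold. Each is 21 bases, 5′ to 3′ on the gene strand, and comes from the GENCODE transcripts (release M21, build GRCm38, the mm10 build of the tables). Capitals mark the DRACH match in the site nearest its centre, with matches that begin GGAC given precedence, and for overlapping pairs it is that of the site up in LPS. A match marks a sequence and not a measured methylated base, and both Cry2 sites held no match.
Clock, 3′UTR, higher-scoring site up in Mel+LPS, chr5:76216377-76216397, minus strand: aagagcacTAACAgtgttggt
Clock, end of the coding sequence, other site up in Mel+LPS, chr5:76216730-76216750, minus strand: tcggcacaGGACTgacagcct
Per1, coding exon, site up in LPS and down in Mel+LPS, chr11:69107036-69107056, plus strand: cagtgaggAGACTgctgagcc
Per1, start of the 3′UTR, site down in Mel+LPS, chr11:69109436-69109456, plus strand: atacagctGGACCaaccaata
Per2, 3′UTR, sites up in LPS and down in Mel+LPS, chr1:91416805-91416825, minus strand: agagaaggGGACCtctctgcc
Per2, end of the coding sequence, site up in Mel+LPS, chr1:91417936-91417956, minus strand: cttccccgGGACTctgtgata
Nr1d2, 3′UTR, site up in Mel+LPS, chr14:18204568-18204588, minus strand: ctaaaatgAAACCagcagcct
Rora, noncoding transcript, sites up in LPS and down in Mel+LPS, chr9:68664200-68664220, plus strand: agaagaaaTAACTtgattctt
Rora, same noncoding transcript, site down in LPS, chr9:68664614-68664634, plus strand: ctgtcctgAGACCtctctagt
Rora, coding exon, site down in LPS, chr9:69364316-69364336, plus strand: ggctgacgGAACTgcatgatg

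By the rule, Clock, Per1, Per2 and Rora held sites up in LPS vs Veh, 5 sites in 4 of 10 genes, where 20.1% of all 21887 protein-coding genes held such a site. None of the 6 genes covered held a site down in LPS vs Veh, against 22.0% of the 11966 protein-coding genes of chromosomes 1 to 9. In Mel+LPS vs LPS, Arntl held the only site up, 1 of 10 genes against 25.6% of all genes. Per1 and Rora held the 2 sites down, 2 of 10 genes against 15.3% of all genes. With 10 genes, 1 gene moves such a share by 10 percentage points, and no test of these shares was made. The background holds every protein-coding gene, also any not expressed in the uterus, which can lower it. Among genes with a site in any table it was 47.6% up and 49.2% down in LPS vs Veh. For Mel+LPS vs LPS it was 60.6% up and 36.2% down, and 5 of the 10 clock genes were among such genes.

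When every site with its centre on an exon was counted instead, whatever gene it was assigned to, 16 sites in 6 of the 10 genes were found, against 37.8% of all protein-coding genes. Per1, Per2, Cry2 and Rora then held sites up in LPS vs Veh, 4 of 10 genes against a background of 16.5%. Rora held both sites down in LPS vs Veh, 1 of 6 genes against 17.3%. Clock, Per2 and Nr1d2 held sites up in Mel+LPS vs LPS, 3 of 10 genes against 21.2%. Per1, Per2, Cry2 and Rora, the 4 genes with exonic sites up in LPS, also held the 5 exonic sites down in Mel+LPS vs LPS, 4 of 10 genes against 12.8%. Both comparisons used the LPS libraries, so a high or low value in them enters both lists. Under either count, Per3, Cry1 and Nr1d1 had no site in any table used.

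**Figure D1:**
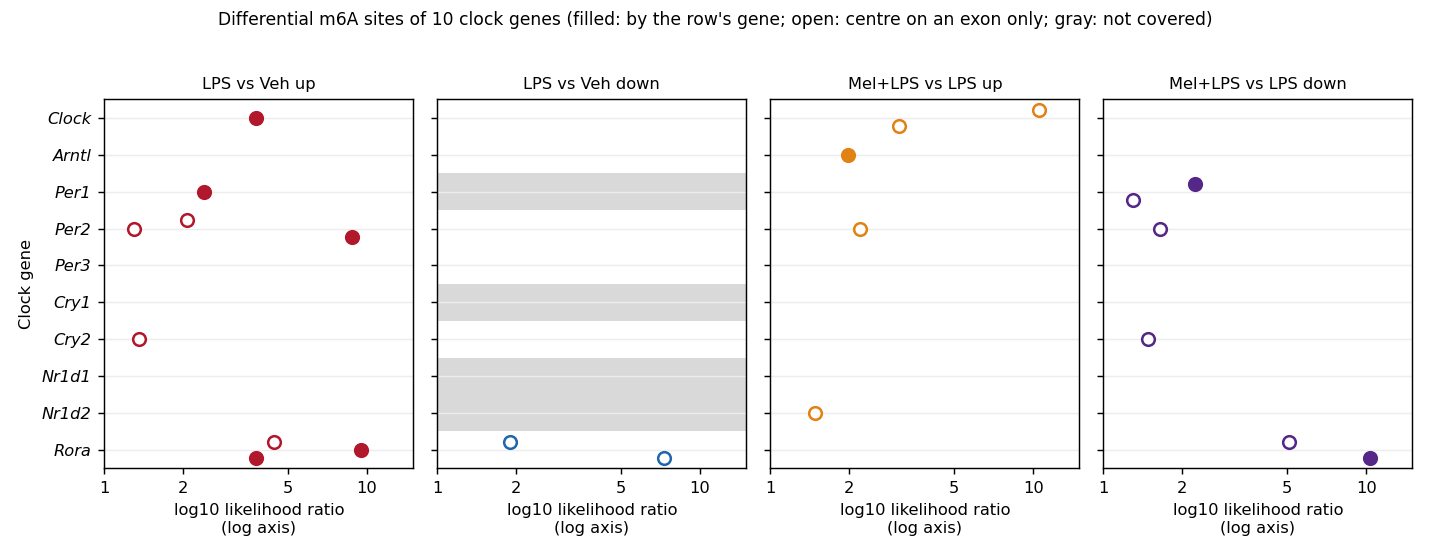
Each point is a differential m6A site of a clock gene (rows) in 1 of the 4 tables (panels), placed by its log10 likelihood ratio on a log axis, filled where the rule chose it and open where only its centre lay on an exon, with gray bands for genes on chromosomes the table was not used for. The 5 filled points up in LPS vs Veh lie between 2.40 and 9.47, the panel of sites down in LPS vs Veh holds Rora alone, and the sites up in Mel+LPS vs LPS are mostly open points, with Clock at 10.56 as the highest.

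Among the activators of the loop, Clock had sites at different ends of the gene in the 2 comparisons. Its site up in LPS vs Veh (chr5:76288599-76288705) lay in intron 1 of 21 with a score of 3.78, 14609 bases from the nearest exon. Its sites up in Mel+LPS vs LPS lay at the other end of the gene, in the last of 23 exons. The site at chr5:76216265-76216453 scored 10.56, more than 97.6% of the sites of that table, and its centre was 343 bases past the last coding base. The site at chr5:76216559-76216785 scored 3.08 and was centered 30 bases past the last coding base. Both had been assigned to the pseudogene Apc-ps1, whose start is 19596 bases from the first of them, so that the gene column alone would not show them under Clock. No site of Clock was down in either comparison.

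Arntl, which encodes the partner of CLOCK, held a single site. It was up in Mel+LPS vs LPS (chr7:113306094-113306258) with a score of 1.98, higher than 43.5% of the sites of the table. The annotation of the tables placed it in exon 19 of 22. On the GENCODE transcript used here it straddled an exon boundary, with 33 of its 165 bases on an exon and its centre 50 bases into the neighboring intron.

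The Period genes encode the repressors whose levels rise and fall over the day. In Per1, the site up in LPS vs Veh (chr11:69106909-69107068) scored 2.40 and the site down in Mel+LPS vs LPS (chr11:69106909-69107107) scored 2.24. They began at the same base of exon 19 of 23, in coding sequence, and both hold the AGACT match shown above for Per1. Their scores were higher than 43.3% and 39.6% of the sites of their tables, so neither stood out. A further Per1 site was down in Mel+LPS vs LPS, at the start of the 3′UTR (chr11:69109317-69109451), with a score of 1.30 that only 9.90% of sites fell below. All 3 had been assigned to n-TTagt5, a tRNA gene downstream of Per1, although the annotation named Per1 for the exonic pair.

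Per2 had sites in 3 tables. The highest, at 8.75 (chr1:91432666-91432808), was up in LPS vs Veh and was annotated as exon 11 of 20, but its centre lay 71 bases from the nearest exon of the GENCODE transcripts and only 1 of its bases lay on that exon. The same score was carried by 32 sites of the table. The other Per2 sites, known only from their centres, lay within the last exon. Of these, a site up in LPS vs Veh (chr1:91416688-91417121) scored 2.07 and a site down in Mel+LPS vs LPS (chr1:91416502-91416941) scored 1.64. They shared 254 bases of the 3′UTR and the GGACC match printed above. Nearer the stop codon, a site up in LPS vs Veh (chr1:91417626-91417756) scored 1.30, and a site up in Mel+LPS vs LPS (chr1:91417794-91417960) scored 2.20. These 2 were 37 bases apart without touching. Per2 therefore had sites in both directions in Mel+LPS vs LPS, at different positions of 1 exon. Per3, the remaining Period gene, had none.

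Of the Cryptochrome genes, whose proteins are the strongest repressors of CLOCK and BMAL1, Cry1 had no site and Cry2 had a pair known only from their centres. The Cry2 site up in LPS vs Veh (chr2:92404694-92404829) scored 1.36 and the site down in Mel+LPS vs LPS (chr2:92404694-92404830) scored 1.48. They differed in position by 1 base and lay in the 3′UTR, about 1065 bases past the last coding base. Both scores were near the bottom of their tables, higher than 10.6% and 18.2% of the sites. They had been assigned to Mapk8ip1, a neighboring gene on the same strand.

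The REV-ERB receptor genes, which repress Arntl, contributed 1 site. Nr1d2 held a site up in Mel+LPS vs LPS (chr14:18204532-18204646) with a score of 1.48, in the 3′UTR of its last exon. It was centered 2099 bases past the last coding base and was assigned to the microRNA gene Gm44469. Nr1d1 had no site in the 3 tables that cover chromosome 11.

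Rora, which encodes the activating nuclear receptor of the second loop, held 7 sites, the most of the 10 genes, and it was also the longest, at 734461 bases. The strongest pair lay at identical positions in intron 1 of 10 (chr9:68754692-68754836). In LPS vs Veh it was up with a score of 9.47, and in Mel+LPS vs LPS it was down with 10.34, above 95.9% and 97.9% of the sites of these tables. It was 89797 bases from the nearest exon of Rora and was assigned to the noncoding gene 9530091C08Rik, so its link to the Rora transcript rests on the intron annotation. Another intron 1 site (chr9:69048404-69048577), up in LPS vs Veh, scored 3.78 and lay 147051 bases from the nearest exon.

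The other Rora sites were known from their centres. On the last exon of the noncoding transcript Rora-204, a site up in LPS vs Veh (chr9:68664118-68664314) scored 4.43 and a site down in Mel+LPS vs LPS (chr9:68664118-68664469) scored 5.10, with 197 bases shared. On the same exon, 211 bases further on, a site was down in LPS vs Veh (chr9:68664526-68664650) with a score of 1.89. Each of these sites on Rora-204 had been assigned to another gene, Gm31325. They lay at least 625094 bases from the nearest exon of the main protein-coding Rora transcript. Their link to Rora therefore rests on the noncoding transcript alone. The last site, down in LPS vs Veh, lay in coding exon 4 of 10 (chr9:69364229-69364393) and scored 7.31, above 91.2% of the table. It overlaps Gm15511, an antisense gene on the opposite strand to which it was assigned, and the strand of the libraries is not given in the sources used here, so reads of the 2 genes cannot be told apart. Rora was thus listed in both directions of LPS vs Veh, down in a coding exon, up in an intron, and both up and down on the noncoding transcript.

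**Figure D2:**
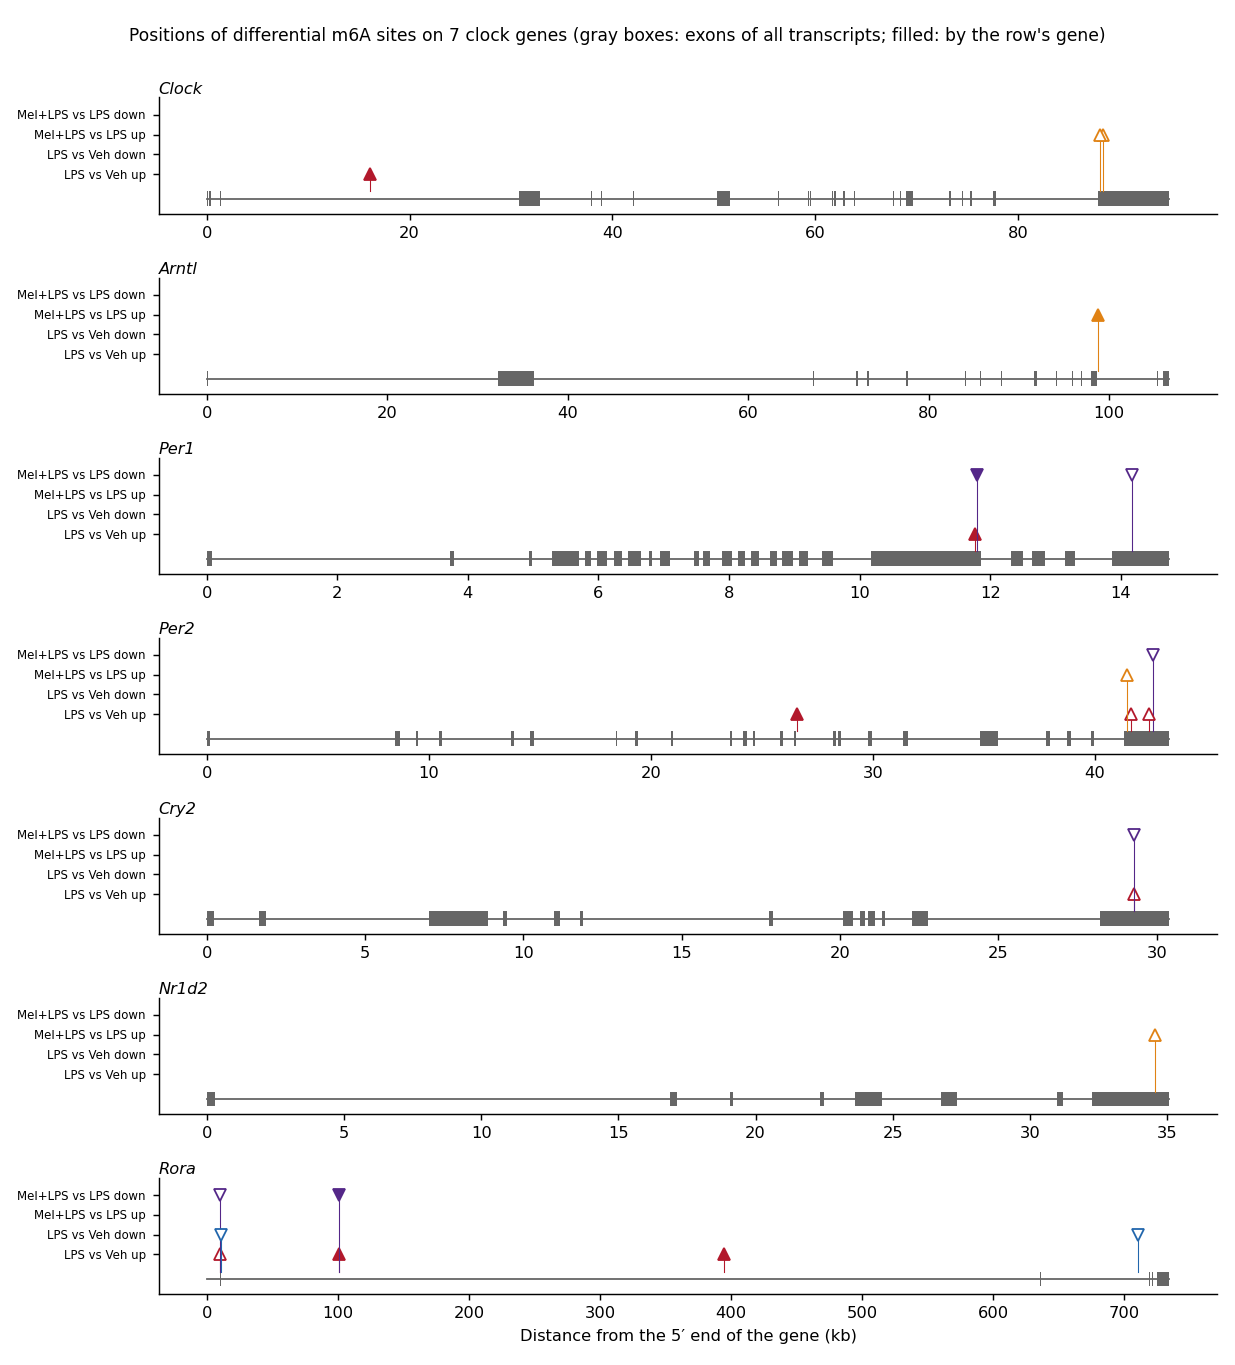
Each panel shows a clock gene with a site as a line with its exons as gray boxes, drawn 5′ to 3′ by distance from its start in kilobases, with upward triangles for sites up and downward triangles for sites down, 1 height and color per table and filled where the rule chose the site. The sites of Cry2 and Nr1d2 and all but 1 each of Clock and Per2 lie in the last exon, those of Per1 fall in exons 19 and 23, and those of Rora are spread along a gene of 734461 bases.

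Sites of the 2 comparisons were then set side by side. Counted by the rule or by exon, LPS vs Veh had 9 sites up, Mel+LPS vs LPS had 6 sites down, and 5 pairs of them shared at least 1 base, in Per1, Per2, Cry2 and, with 2 pairs, Rora. The rule alone gave 2 of these pairs, in Per1 and in the intron of Rora. For orientation, 38.5% of the 12023 sites of the first list and 50.6% of the 9211 sites of the second shared a base with the other list, so such pairs were common among all sites, and the LPS libraries stand in both comparisons. On chromosomes 1 to 9, none of the 2 clock gene sites down in LPS vs Veh shared a base with the 4 sites up in Mel+LPS vs LPS, while 30.3% and 26.5% of all sites there did. Sites of equal direction did not meet either. None were shared by the 2 lists of sites up, where 2.25% and 2.02% of all sites were, or by the 2 lists of sites down, where 0.799% and 1.06% were. In the 5 pairs the scores were alike, at 2.40 and 2.24 in Per1, 2.07 and 1.64 in Per2, 1.36 and 1.48 in Cry2, 4.43 and 5.10 on the noncoding Rora transcript and 9.47 and 10.34 in the Rora intron. The sites of Clock, Arntl and Per2 up in Mel+LPS vs LPS overlapped no site of LPS vs Veh, and for that of Nr1d2 the list of sites down in LPS vs Veh was not used. Whether these genes differed between Mel+LPS and Veh was not analysed here.

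The level of the scores was read against all sites of the same table. The 5 sites up in LPS vs Veh by the rule had a median of 3.78, against 2.88 for the table. The single site up in Mel+LPS vs LPS lay at 1.98, against 2.17, and the 2 sites down had a median of 6.29, against 3.09. Of the 8 sites, 3 scored at least 6. Up in LPS vs Veh these were in Per2 and Rora, 2 of 10 genes against 3.73% of all protein-coding genes. Among the sites down in Mel+LPS vs LPS, Rora alone reached it, 1 of 10 genes against 2.74%. By the rule the clock genes had none at this score down in LPS vs Veh (background 3.28%) and none up in Mel+LPS vs LPS (background 4.35%), while by exon Rora reached 7.31 in the former and Clock 10.56 in the latter. Taken by exon, the median was 2.07 for the 5 sites up in LPS vs Veh and 4.6 for the 2 down, and in Mel+LPS vs LPS it was 2.64 for the 4 sites up and 1.64 for the 5 down. The highest clock gene scores lay in the Clock 3′UTR and in an intron of Rora.

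Some scores recurred across many sites. The score of 3.78, carried by the Clock intron site and by an intron site of Rora, was shared by 1450 of the 12023 sites up in LPS vs Veh. Of these 1450 sites, 68.5% were intronic or intergenic, against 32.2% of the whole table. The Per2 site at 8.75 also had a recurring score, here defined as one shared by 20 or more sites of a table. Without such scores, 2 clock gene sites up in LPS vs Veh remained of the 5, in Per1 and Rora. Each of the 14 sites found by their centres had a score that did not recur in this sense.

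**Figure D3:**
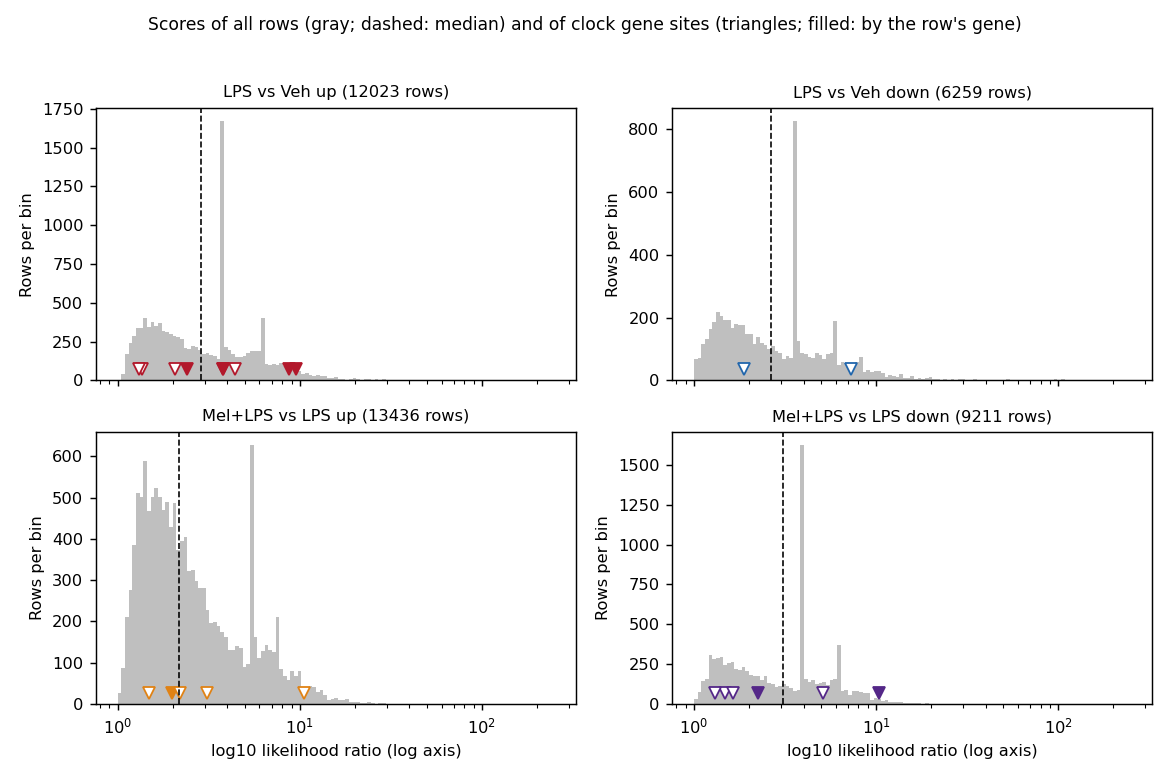
Gray histograms show the log10 likelihood ratios of all sites in each of the 4 tables on a log axis, the dashed line the table's median, and triangles the clock gene sites, filled where the rule chose them. Spikes mark recurring scores, the tallest in the table of sites up in LPS vs Veh at 3.78 with 1450 sites, and the clock gene sites lie between 1.30 and 10.56.

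Where in the transcripts the sites lay also differed between the ways of counting them. By the rule, 4 of the 8 sites were annotated as exonic and 4 as intronic, with none in a 3′UTR. The rule itself largely sets this split, because only exon and intron annotations name a gene. A site annotated as 3′UTR or promoter could enter only when it was assigned to the clock gene. On GENCODE transcripts, 6 of the 8 sites had their centre in an intron, among them those of Arntl and Per2. Together with the 14 sites known from their centres, 10 of 22 lay in a 3′UTR or within 200 bases of the last coding base, in Clock, Per1, Per2, Cry2 and Nr1d2. At 4 of them the centre was within 200 bases of the last coding base. Of the 22 sites, 19 had been assigned to another gene than the clock gene that they lie in. In the 4 sites without any exonic base, 1 in Clock and 3 in Rora, there was no transcript sequence to search. The Arntl site and the Per2 site at 8.75, centered off an exon, were not searched for the motif either.

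The motif was counted within 100 bases on either side of the centre of the 16 exonic sites, along the transcript. DRACH was found in 14 of them, 87.5%, and in 99.1% of the 18109 windows around all sites on exons of protein-coding genes. Windows of this length nearly always hold the motif, and the 16 windows include overlapping ones. The density was 19.6 matches per kilobase for clock gene sites and 24.1 for all sites. The narrower motif GGAC, which overlaps DRACH where A, C or T follows it, was in 7 of the 16 windows, 43.8%, against 63.3% of all windows. The windows without DRACH were those of both Cry2 sites, which cover the same sequence.

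A wider list of 31 genes that act with the core clock was counted in the same way. It holds their paralogs, the D-box factors, the kinases and ubiquitin enzymes that set the life of PER and CRY proteins, and cofactors. By the rule, 9 of 31 held a site up in LPS vs Veh (29.0%, against 20.1% of all genes) and 3 of the 10 on covered chromosomes a site down (30.0%, against 22.0%). In Mel+LPS vs LPS, 16 of 31 held a site up (51.6%, against 25.6%), where the core clock genes had only Arntl, and 11 of 31 a site down (35.5%, against 15.3%). By exon, Mel+LPS vs LPS had 14 of 31 genes with a site up (45.2%, against 21.2%) and 2 of 31 with a site down, Bhlhe41 and Crebbp (6.45%, against 12.8%), while the core genes had 3 and 4 of 10. These lists were not tested against each other. The background again holds all protein-coding genes, expressed in the uterus or not, so the shares are not read as enrichment.

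The highest scores of the wider list lay in the table of sites up in Mel+LPS vs LPS. Rorb, a paralog of Rora, scored 14.76 in coding sequence (chr19:18977594-18977790). Ep300, an acetyltransferase that coactivates CLOCK and BMAL1, followed at 12.00 (chr15:81621227-81621368). That site was centered in an intron, 61 bases from the nearest exon, with 10 of its 142 bases exonic. Btrc, which marks PER proteins for degradation, came next at 11.10 (chr19:45456564-45456757). This Btrc site was known only from its centre, on an exon of a noncoding Btrc transcript, and was assigned to Gm6807. By the rule, the highest Btrc score up in Mel+LPS vs LPS was 2.03. Sites down in Mel+LPS vs LPS were led by Fbxw11, a close relative of Btrc, at 6.29 (chr11:32674467-32674615, a score shared by 194 sites), by the corepressor gene Ncor1 at 6.29 and by Npas2, a paralog of Clock, at 6.07. Each of these sites was centered in an intron. The same genes also held sites up in Mel+LPS vs LPS, at up to 7.91 in Fbxw11, 7.67 in Ncor1 and 3.17 in Npas2. Ep300 in turn also held a site down there, at 5.83. In LPS vs Veh the kinase genes Prkaa1 at 8.12 (chr15:5164826-5164955, intron) and Csnk2a1 at 5.92 (chr2:152254212-152254411) led the sites up. Csnk2a1 was also listed down at another position with 1.69, after Ciart, a repressor of CLOCK and BMAL1, at 4.0 (chr3:95878570-95878713).

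Sites with opposite directions in the 2 comparisons also overlapped in Prkaa1 and Crebbp of the wider list. Prkaa1, a subunit of the kinase AMPK that marks CRY for degradation, had an intronic site at 4.29 up in LPS vs Veh, and one at 1.24 down in Mel+LPS vs LPS (chr15:5161145-5161256 in the latter). Crebbp, a coactivator related to Ep300, had a pair in coding sequence at 1.44 in LPS vs Veh and 2.5 in Mel+LPS vs LPS. In both pairs at least 1 score was under the median of its table.

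**Figure D4:**
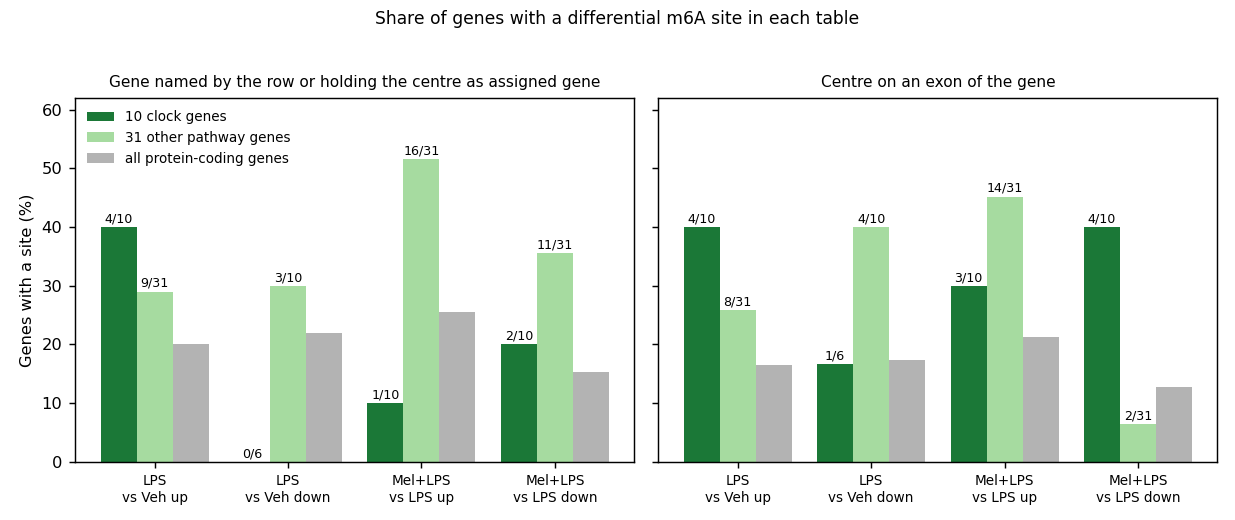
Bars give the percent of genes with a differential m6A site in each table for the 10 clock genes, the 31 other pathway genes and all protein-coding genes, by the rule on the left and by the centre on an exon on the right, with counts above the bars. By the rule the pathway genes reach 51.6% up in Mel+LPS vs LPS where the clock genes have 1 of 10, and by exon the clock genes have 4 of 10 down in Mel+LPS vs LPS where the pathway genes have 2 of 31.

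The melatonin receptor genes Mtnr1a and Mtnr1b had no site in any table used. For orientation, by the rule 9 of 12 uterine genes held a site in at least 1 table, where 42.3% of all protein-coding genes did. Pgr and Esr1, for the progesterone and estrogen receptors, were among them, and Hoxa10, Hoxa11 and Vim held none. Of a list of 11 leukocyte genes, 4 held a site in at least 1 table (36.4% against the same 42.3%). By the rule this list had 4 with a site up in LPS vs Veh (Ptprc, Adgre1, Itgam and Lyz2, 36.4% against 20.1% of all genes). None of the 7 covered had a site down (22.0% of all genes). In Mel+LPS vs LPS it had, by the rule, 3 with a site up (27.3% against 25.6%) and 2 with a site down (18.2% against 15.3%), near the shares of all genes. By exon, 3 were up in LPS vs Veh (27.3% against 16.5%) and none down. In Mel+LPS vs LPS, 1 was then up (Ptprc, 9.09% against 21.2%) and 1 down (Cd68, 9.09% against 12.8%). The defining leukocyte gene Ptprc was thus listed up in LPS vs Veh, like Per1, Per2, Clock and Rora, and its part in the clock gene sites was not tested. A differential site is not a level of expression, and the lack of one says nothing about whether a gene is expressed.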

How the data were processed

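m6A-seq of mouse uterus (Veh, LPS and Mel+LPS, 3 replicates each with input and immunoprecipitated RNA) was analysed from 4 tables of differential peaks. Per the study's methods and the submitters' processing notes, reads were trimmed by the authors (Fastp) and mapped to mm10 with STAR 2.5.2a before they called peaks with exomePeak2, compared groups with MACS2 (stated as version 3.4) and annotated peaks with ChIPseeker 1.22.1, and HOMER 4.10 is named for motifs. The deposited score of each peak is the log10 likelihood ratio of the authors' comparison, and peak positions are as deposited. How replicates were combined is not stated. ChIPseeker assigns a peak to the gene with the nearest start, which can differ from the gene it lies in. Depth per library and expression levels were not analysed here.

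The list of LPS-lowered peaks holds 6414 rows, of which 6259 on chromosomes 1 to 9 were used. Peaks were selected by gene name or assigned gene and, as an alternative, by their centre on exons of GENCODE release M21. Shares of genes are of protein-coding genes. Overlap meant at least 1 shared base, and DRACH and GGAC were searched on the gene strand of transcript sequences in windows of 100 bases on either side of the centre. Python 3.11.15, pandas 2.3.3, numpy 2.4.6 and matplotlib 3.10.9 were used, and the counting steps were tested on simulated data. No test across genes was made, and with 1 score per peak and comparison no test across replicates was possible.

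The 10 clock genes and the other lists were chosen with earlier results of these data known. All 10 genes are named. Of the 31 pathway genes, those with overlapping sites of opposite direction and the 3 highest scores of each table are named, together with genes that overlap a clock gene site or that a count of 5 or fewer requires. Not every gene that this covers is reported here. Alternatives covered the assignment of peaks, score minimums of 3 and 6, feature classes, joining of peaks under 200 bases apart, overlap definitions, the background genes and the motif. Counting by gene ends, leaving out recurring scores and counting shared exonic sites were chosen after seeing the data.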

Additional observations from a re-analysis of the deposited data

How the results depend on the processing

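Of 96 alternative values, 60 stayed near the reported one (for counts, within 1.5 times) and 36 moved. With the centre on an exon, LPS vs Veh had 2 sites in 1 gene down, and Mel+LPS vs LPS had 4 in 3 genes up and 5 in 4 genes down, and the pairs shared by LPS up and Mel+LPS down rose from 2 to 4. With the centre between the ends of the gene, LPS vs Veh had 10 sites up and 2 in 1 gene down, and Mel+LPS vs LPS had 5 in 4 genes up and 6 in 4 genes down. At a score of at least 3, 0 sites and genes were up and 1 was down in Mel+LPS vs LPS. At a score of at least 6 the same held, and 2 sites in 2 genes were up in LPS vs Veh. With exon and UTR classes only, 2 sites in 2 genes were up in LPS vs Veh and 1 in 1 gene was down in Mel+LPS vs LPS. Without recurring scores, 2 sites in 2 genes were up in LPS vs Veh. With the highest site of each gene, the median up in LPS vs Veh was 6.27. Among genes with a site in any table, the background for LPS vs Veh was 47.6% up and 49.2% down, and for Mel+LPS vs LPS it was 60.6% up and 36.2% down. GGAC was in 43.8% of windows, against 87.5% for DRACH. The counts therefore depend on how a site is tied to a gene and on the score minimum. No paired analysis was possible because the tables hold 1 score per peak and comparison and none per replicate, and for the same reason no replicate could be left out.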

Other observations

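Within the ends of Rora, 1 more site up in LPS vs Veh (chr9:68898299-68898414) was neither named Rora nor centered on a Rora exon. It lay on an exon of the noncoding gene Gm31262 and carried the recurring score of 3.78.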
